A study of Mus musculus with 12 samples.

Results

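Gene expression was compared between the tolerant subsets of mouse CD4 T cells (Anergic and Treg) and cells of the other subsets (effector, Teff, and Naive). The genes described are those for which all 6 tolerant libraries lay above, or all 6 lay below, all 6 other libraries. Such genes are called separated. Levels are CPM, the usual count scaled to library size, with a TMM factor that corrects for differences in composition between libraries. Of 54532 entries in the count table, 1165 were separated, 733 with higher and 432 with lower levels in tolerant cells. A filter on low counts kept 13393 genes for testing, and among these 670 genes (5%) were separated with higher and 416 (3.11%) with lower levels. Scaling by total counts alone gave 586 and 354 separated genes, of which 533 and 318 were among the 670 and 416.

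All subsets came from untreated mice, wild-type on the C57BL/6 background, that carried a Foxp3-GFP reporter and had a polyclonal T cell repertoire. CD4 T cells were sorted fresh from combined spleen and lymph nodes. Anergic cells had high CD44, no FOXP3, high CD73 and high FR4 (folate receptor 4), and carried NRP1. Teff also had high CD44 and no FOXP3, with low CD73 and low FR4. Treg were sorted as FOXP3+ CD25+, and Naive cells as CD44low. CD44 marks antigen experience, and no CD44 gate is given for Treg. Each subset had 3 libraries of total RNA. Separate animals are not named as the source of the replicates. The p-values therefore reflect the spread among these samples alone, and that spread may be technical.

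Peripheral tolerance keeps self-reactive T cells in check. Anergic cells are antigen-experienced cells that respond poorly when their receptor is engaged again, and regulatory T cells, whose lineage factor is FOXP3, suppress other cells. Chronic T cell receptor signalling is known to induce inhibitory receptors and factors such as NR4A, TOX and IRF4, and NF-kappaB subunits, above all c-Rel, are needed for Treg development. No function was measured in these libraries.

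Libraries held 6909035 to 9527897 counts. A set of 20 ribosomal and small RNA entries took 28.1 to 39.7% of them, the most in Anergic library 3, which also had the lowest TMM factor (0.871). Every pair of replicates differed beyond counting noise, with a chi-square of 2.23 to 22.5 for each degree of freedom, and all 12 libraries were kept as separate samples. In sorted bulk samples, fewer cells that express a gene and less RNA per cell cannot be told apart.

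The sort markers were checked first. Foxp3 stood at 20.3, 14.995 and 19.3 CPM in Anergic, 537, 529 and 560.4 in Treg, 0.80998, 0.371 and 1.02 in Teff and 1.24, 1.61 and 1.21 in Naive libraries. It was high in Treg and low but separated in Anergic libraries, which lay above all Teff and Naive libraries although they were sorted as FOXP3-negative. An annotated neighbour on the same strand, Flicr, covers 31.5% of the exon length of Foxp3. Nt5e, which encodes CD73, stood at 255 ± 23.5 CPM in Anergic and 184 ± 11.4 in Treg against 57.4 ± 4.01 in Teff and 19.3 ± 1.92 in Naive cells. Here and below such values are the mean ± SD of n = 3 libraries. Izumo1r, which encodes FR4, stood at 423 ± 4.57 CPM in Anergic and 309 ± 18.7 in Treg against 73.7 ± 1.45 in Teff and 49.7 ± 1.49 in Naive cells. Nrp1 stood at 332 ± 34.9 CPM in Anergic and 253 ± 13.9 in Treg against 62.6 ± 7.77 in Teff and 3.46 ± 0.895 in Naive cells. All 3 genes were separated. The gates fix the order of Nt5e and Izumo1r between Anergic and Teff cells, whereas no NRP1 gate is given for Teff. Treg were not gated on these proteins. Il2ra, which encodes CD25, was not separated, at 15.2 ± 4.82 CPM in Anergic and 708 ± 48.8 in Treg against 44.4 ± 5.41 in Teff and 2.201 ± 0.738 in Naive cells. The other sort genes, Cd44 and Cd4, were not separated either. Cd44 was near its Teff level in Anergic cells and lower in Treg, at 333 ± 33.1, 116 ± 8.15, 295 ± 8.596 and 35.2 ± 4.77 CPM in Anergic, Treg, Teff and Naive cells.

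Counts were also tested with the quasi-likelihood method of edgeR, at a threshold of 0.05 after Benjamini-Hochberg adjustment over all 13393 genes. The contrast set the mean of Anergic and Treg against the mean of Teff and Naive. This called 2719 genes higher (20.3%) and 2191 lower (16.4%) in tolerant subsets. Of the separated genes 669 of 670 and 411 of 416 were called, and the exceptions were Odr4 among the higher and Sepsecs, Pelo, Man2c1os, Gm48194 and Gm48939 among the lower. The separation used the same levels, so these counts describe the choice of genes and are no test of it. A fit of 2 classes, in which differences between Anergic and Treg and between Teff and Naive count as spread, called 1086 genes higher and 706 lower, and 644 and 396 of the separated genes.

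Log2 fold changes below are those of this contrast, tolerant minus other, each ± its standard error from edgeR, and for separated genes they are given as a description. Their median was 1.12 in the higher genes, where the smallest was 0.15, and -0.56 in the lower genes, where they ran from -4.98 to -0.12. For 6 higher genes with 0 counts in all other libraries the fitted value depends on the prior count, and their lower bounds, about 19.5-fold or more, lie above the median. The median over all tested genes was 0.00. The higher genes thus included the larger differences. In 223 of the 670 higher genes the smallest of the 4 pairwise differences (Anergic and Treg, each against Teff and Naive) was at least 1 on the log2 scale, in 91 at least 2 and in 37 at least 3. The corresponding counts among the 416 lower genes were 40, 12 and 4. Protein-coding genes made up 630 of the higher genes (94%), 376 of the lower (90.4%) and 79.5% of all tested.

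Each tolerant subset was also compared with each other subset, and these 4 comparisons share libraries. Anergic against Teff gave 1864 genes higher (13.9%) and 1702 lower (12.7%), and Anergic against Naive 3342 higher (25%) and 2851 lower (21.3%). Treg against Teff gave 2006 higher (15%) and 1888 lower (14.1%), and Treg against Naive 2538 higher (19%) and 1858 lower (13.9%). All 4 comparisons called 507 genes higher (3.79%) and 256 lower (1.91%). Among the separated genes these were 479 of the 670 and 246 of the 416. Separation and the call in all 4 comparisons therefore overlapped without coinciding, although both rest on the same levels.

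Membership at the edge rests on small distances. Just inside on the higher side stood Pkp3, a desmosome protein gene, with a lowest tolerant library of 42.952 and a highest other library of 42.929 CPM, and just outside stood Jrk, with 12.515 and 12.519 CPM. Just inside on the lower side stood Brd3, with a highest tolerant library of 55.654 and a lowest other library of 55.657 CPM, and just outside stood Coro1c, with 76.508 and 76.48 CPM. Genes with large pairwise differences are described next.

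The 15 higher genes ranked first were Lrrc32, Fam160a1, Itgb8, Penk, Rln3, Cd83, Foxp3, Gbp2b, Plagl1, Gucy1a1, Rgs16, Dst, Arrdc4, Tnfrsf4 and Ptpn5. They were ranked by the smallest of the 4 pairwise differences, among separated genes whose mean over the tolerant libraries was 10 CPM or more. That mean is over both tolerant subsets, so a gene could reach it through a single subset. Lrrc32, Gbp2b and Rln3 did so through Treg alone, and Ptpn5 through Anergic alone. Penk encodes the precursor of the opioid peptides called enkephalins. An opposite-strand gene covers 14.3% of its exons. Penk stood at 41.9, 25.2 and 47.7 CPM in Anergic, 40.7, 46.8 and 48.7 in Treg, 1.74, 1.48 and 1.65 in Teff and 0.138, 0 and 0 in Naive libraries. All 6 tolerant libraries were high, Teff libraries were far lower, and Naive libraries were at or near 0. The Anergic and Treg levels of Penk overlapped (Anergic minus Treg -0.25 ± 0.148, adjusted p = 0.223). Itgb8, a subunit of an integrin that activates latent TGF-beta, stood at 76.99, 46.04 and 55.3 CPM in Anergic, 34.2, 37.8 and 36.8 in Treg, 1.62, 0.495 and 1.02 in Teff and 0, 0.247 and 0.303 in Naive libraries. The lowest tolerant library of Itgb8 lay far above its highest Teff library, and Anergic libraries were above Treg (Anergic minus Treg 0.72 ± 0.143, adjusted p = 0.000348). No fold is given for these genes because Naive libraries held only a few counts.

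Cd83, which encodes a surface protein of activated lymphocytes and dendritic cells, stood at 60.3, 60.7 and 68.7 CPM in Anergic, 59.2, 73.7 and 78.5 in Treg, 3.59, 4.45 and 3.69 in Teff and 0.963, 0.989 and 1.67 in Naive libraries. The tolerant libraries overlapped with each other and were far above both other subsets, with a log2 fold change of 4.94 ± 0.115. Rgs16 encodes a regulator of G protein signalling, and an opposite-strand gene covers 10.1% of its exons. Rgs16 stood at 61.97, 31.98 and 35.5 CPM in Anergic, 46.9, 38.2 and 35.4 in Treg, 4.63, 5.44 and 5.22 in Teff and 1.38, 1.11 and 1.21 in Naive libraries. Its spread was wide within Anergic libraries, but each exceeded every Teff library, with a log2 fold change of 4.05 ± 0.1802. Dst, which encodes the cytoskeletal linker dystonin, reached the highest level of the 15 genes after Foxp3 and Lrrc32 in Treg, at 169.9 ± 25.1 CPM in Anergic and 188 ± 11.4 in Treg against 22.96 ± 3.02 in Teff and 9.28 ± 1.62 in Naive cells. It was not called between the tolerant subsets (Anergic minus Treg -0.14 ± 0.0896, adjusted p = 0.25).

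Several of the 15 genes had lower levels than these. Rln3, which encodes the peptide hormone relaxin-3, averaged 9.96 CPM in Anergic and 19.4 in Treg cells, against 0.486 in Teff and 0.225 in Naive. Gucy1a1, a subunit of the nitric oxide receptor guanylate cyclase, averaged 11.98 and 17.2 CPM against 1.31 and 1.25. The arrestin-domain gene Arrdc4 averaged 13.2 and 16.5 CPM against 1.94 and 0.614. Rln3 and Gucy1a1 were called lower in Anergic than in Treg cells (adjusted p = 0.000352 and 0.041), and Arrdc4 was not (adjusted p = 0.254). Fam160a1 averaged 19.1 and 16.9 CPM and had 0 counts in all Naive libraries. Ptpn5, which encodes a tyrosine phosphatase, was higher in Anergic than in Treg cells (Anergic minus Treg 1.74 ± 0.229, adjusted p = 1.78e-06). Gbp2b, which encodes an interferon-inducible guanylate-binding protein, was lower in Anergic than in Treg cells (Anergic minus Treg -3.31 ± 0.314, adjusted p = 2.37e-08). Its tolerant libraries ran from 1.33 to 24.8 CPM, and no other library exceeded 0.509. Gbp2b has close relatives in its family that may share its reads, which makes its level uncertain.

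**Figure D1:**
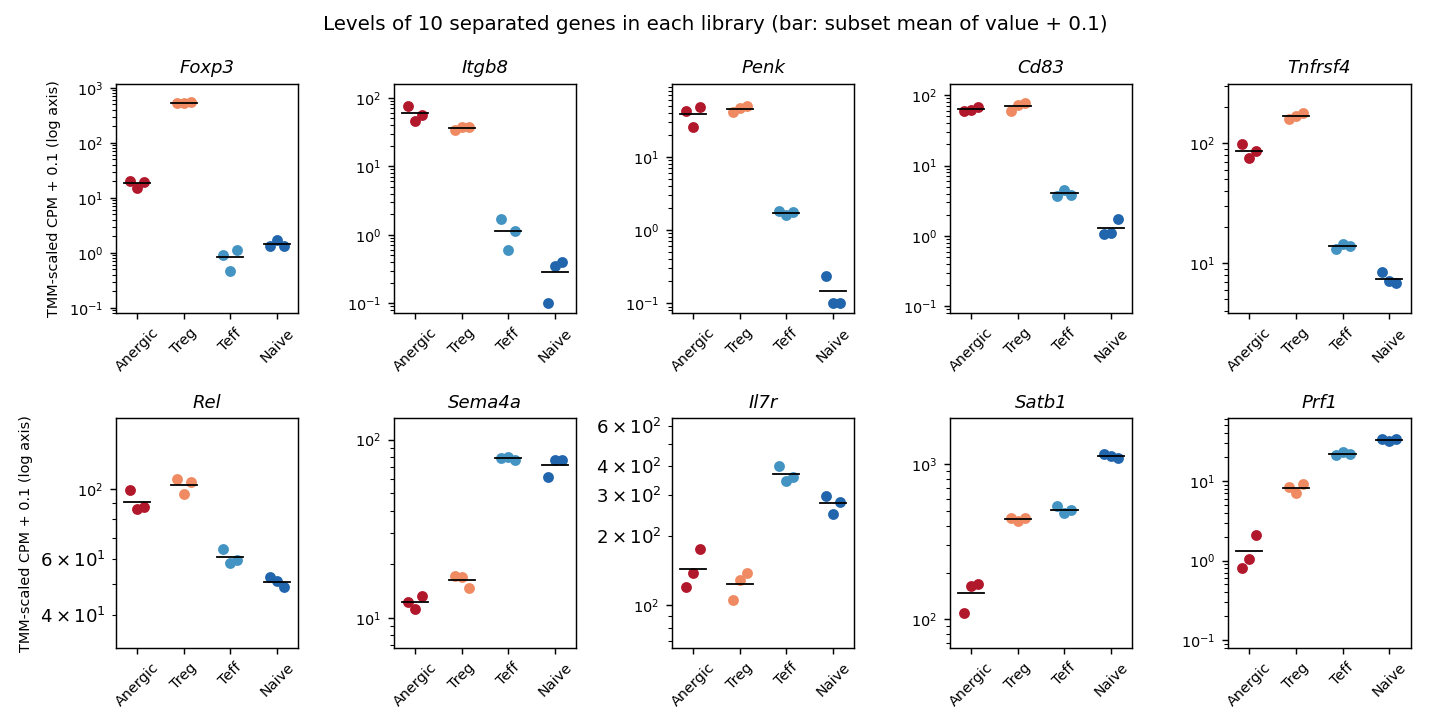
Levels of 10 separated genes in each of the 12 libraries, as CPM plus 0.1 on a log axis, with a bar at the mean of each subset. For Foxp3, Itgb8, Penk, Cd83, Tnfrsf4 and Rel all Anergic and Treg points lie above all Teff and Naive points, and for Sema4a, Il7r, Satb1 and Prf1 all lie below.

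**Figure D2:**
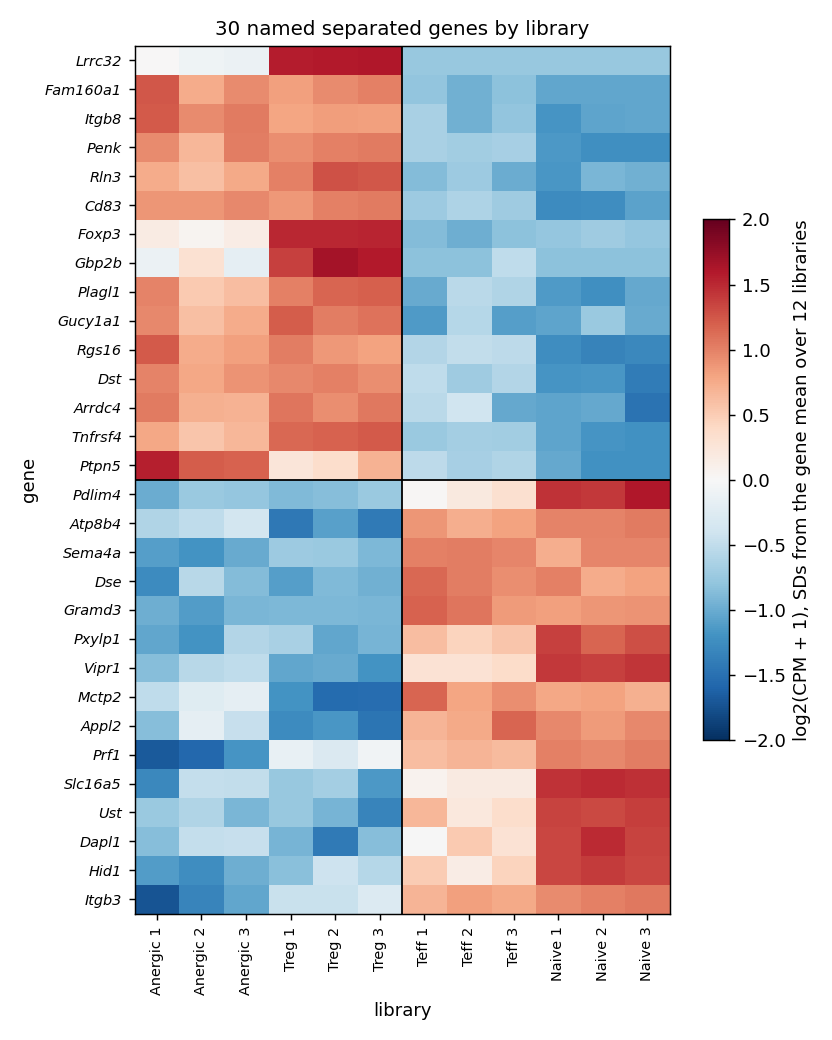
Heat map of the 15 higher and 15 lower separated genes with the largest pairwise differences, with genes as rows and libraries as columns. Color gives log2(CPM + 1) in standard deviations from the mean of the gene over the 12 libraries, and in every row the 6 tolerant libraries all lie to the same side of the 6 others.

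All 30 tested genes of the Treg core list, genes commonly used to describe Treg, were higher in tolerant subsets (24 in the fit of 2 classes), and 22 of the 30 were separated. The list median was 3.55 on the log2 scale, against 0.00 over all genes. List counts here and below stand against 20.3% higher and 16.4% lower over all tested genes (1086 and 706 of 13393 in the fit of 2 classes). Its 22 separated members include Foxp3 itself and the 3 sort genes, so it is not independent of the gates. Ikzf2, which encodes the transcription factor Helios, stood at 458, 322 and 347 CPM in Anergic, 523, 528 and 539 in Treg, 92.3, 79.9 and 79.3 in Teff and 5.37, 2.84 and 4.24 in Naive libraries. Teff libraries were intermediate and Naive libraries close to 0, with a log2 fold change of 4.59 ± 0.0958. Tigit, an inhibitory receptor gene, stood at 101, 63.4 and 71.7 CPM in Anergic, 40.03, 52.7 and 50.3 in Treg, 13.8, 13.97 and 14.6 in Teff and 0.413, 0.618 and 0.909 in Naive libraries. Here Anergic libraries were the highest (Anergic minus Treg 0.73 ± 0.126, adjusted p = 6.53e-05).

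Other Treg core genes were separated but had much lower levels in Anergic than in Treg cells. Lrrc32 encodes GARP, which holds latent TGF-beta at the cell surface, and stood at 4.93, 3.75 and 3.45 CPM in Anergic and 223, 235 and 237 in Treg libraries. It had 0 counts in all 6 Teff and Naive libraries, and its pooled level in the 6 tolerant libraries (summed counts over summed scaled library sizes) was at least 1886-fold higher than 3 counts over those 6. Most of these counts came from Treg. Gpr83, which encodes a G protein-coupled receptor, stood at 14.1 ± 0.395 CPM in Anergic and 112 ± 4.44 in Treg against 1.43 ± 0.341 in Teff and 7.598 ± 0.778 in Naive cells. Swap70, which encodes a guanine nucleotide exchange factor, stood at 18.04 ± 2.101 CPM in Anergic and 124 ± 11.3 in Treg against 13.3 ± 0.997 in Teff and 8.54 ± 0.892 in Naive cells. Anergic libraries exceeded the others by a small margin in this gene. Ikzf4, which encodes the Helios relative Eos, stood at 24.4 ± 5.95 CPM in Anergic and 102 ± 7.77 in Treg against 2.72 ± 0.254 in Teff and 7.11 ± 0.994 in Naive cells, with Naive above Teff.

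Ctla4, which encodes an inhibitory receptor for CD80 and CD86, was separated, at 24.3, 13.2 and 9.17 CPM in Anergic, 29.6, 24.7 and 26.7 in Treg, 5.67, 4.95 and 5.22 in Teff and 1.79, 1.36 and 0.606 in Naive libraries. Capg, which encodes an actin-capping protein, averaged 59.7 and 133 CPM in Anergic and Treg against 33.2 and 16.1 in Teff and Naive cells. The zinc finger gene Plagl1 averaged 11.2 and 18.5 against 1.16 and 0.284. Both were higher in Treg than in Anergic cells. The 8 members that were called but not separated were Il2ra, Itgae, Entpd1, Icos, Socs2, Klrg1, Il1rl1 and Prdm1.

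Of the 14 tested costimulatory receptor genes 10 were higher and 2 lower (7 and 0 in the fit of 2 classes), and 7 were separated, all with higher levels. The list median was 0.92 on the log2 scale. Of the 7, 6 belong to the TNF receptor family, namely Tnfrsf4, Tnfrsf8, Tnfrsf9, Tnfrsf18, Tnfrsf1b and Cd27, and the other is Slamf1. Tnfrsf4, which encodes OX40, stood at 99.4, 74.6 and 85.8 CPM in Anergic, 160.3, 169 and 178 in Treg, 13.1, 14.2 and 13.7 in Teff and 8.25, 6.92 and 6.66 in Naive libraries. The subsets fell in the order Treg, Anergic, Teff and Naive with no overlap between neighbours. Tnfrsf9, which encodes 4-1BB, stood at 40.1, 38.5 and 45.96 CPM in Anergic, 93.5, 122 and 119 in Treg, 10.9, 12.5 and 10.8 in Teff and 9.08, 9.03 and 7.42 in Naive libraries, with the same order of means. Tnfrsf18, which encodes GITR, stood at 73.7, 63.1 and 66.8 CPM in Anergic, 167, 188 and 182 in Treg, 55.7, 57.3 and 60.9 in Teff and 28.2, 29.4 and 26.4 in Naive libraries. The lowest Anergic library exceeded the highest Teff library of Tnfrsf18 by little, and an opposite-strand gene covers 27.2% of its exons.

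Tnfrsf1b, which encodes TNF receptor 2, averaged 147 CPM in Anergic and 206 in Treg against 76.3 in Teff and 37.6 in Naive cells. Tnfrsf8, which encodes CD30, averaged 4.804 and 9.87 against 1.19 and 0.101 CPM. All 6 of these receptor genes were higher in Treg than in Anergic cells at an adjusted p under 0.05, with Anergic minus Treg differences from -1.42 (Tnfrsf9) to -0.44 (Cd27). The list members called lower were the ligand gene Cd40lg and Cd226. Cd40lg stood at 136 ± 0.702 CPM in Anergic and 18.3 ± 1.27 in Treg against 151 ± 2.87 in Teff and 110.04 ± 11.2 in Naive cells, with Treg apart from the other subsets. Both calls were lost in the fit of 2 classes.

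Of the 14 tested inhibitory receptor genes 11 were higher and 2 lower (7 and 1 in the fit of 2 classes), and 7 were separated with higher levels, with a list median of 1.46. Lag3, which encodes a receptor for MHC class II, stood at 147, 84.5 and 92.05 CPM in Anergic, 21.98, 27.3 and 26.5 in Treg, 6.48, 1.98 and 5.47 in Teff and 2.61, 1.24 and 1.82 in Naive libraries. Pdcd1, which encodes PD-1, stood at 142, 114 and 121 CPM in Anergic, 26.8, 32.6 and 26.2 in Treg, 20.5, 20.7 and 21.9 in Teff and 4.402, 4.08 and 3.03 in Naive libraries. Cd200, which encodes an inhibitory ligand, stood at 65.7, 66.3 and 70.9 CPM in Anergic, 29.3, 33.1 and 25.6 in Treg, 12.8, 14.1 and 14.5 in Teff and 4.68, 5.94 and 5.301 in Naive libraries. All 3 had their highest levels in Anergic cells, by 2.10 ± 0.179 (adjusted p = 1.54e-09), 2.14 ± 0.0948 (adjusted p = 1.39e-14) and 1.21 ± 0.0944 (adjusted p = 3.49e-10) over Treg on the log2 scale. In Treg, Pdcd1 exceeded Teff only narrowly. Cd274, which encodes PD-L1, averaged 54.4 and 50.8 CPM in Anergic and Treg against 37.9 and 23.6 in Teff and Naive cells, with an opposite-strand gene over 14.1% of its exons. The collagen receptor gene Lair1 was the separated member with lower levels, at 1.89 ± 0.448 CPM in Anergic and 1.44 ± 0.0659 in Treg against 8.93 ± 0.835 in Teff and 7.61 ± 1.25 in Naive cells.

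The anergy-associated list had 28 tested genes, of which 20 were higher and 5 lower (14 and 2 in the fit of 2 classes), with a median of 0.77. Of these 12 were separated with higher levels and 2 with lower, and 3 of the 12 are sort genes. Tox, a transcription factor gene of chronically stimulated T cells, stood at 216, 184 and 199 CPM in Anergic, 114, 102 and 111 in Treg, 59.4, 47.98 and 48.7 in Teff and 61.5, 62.4 and 56.9 in Naive libraries. Anergic libraries were highest, Treg libraries next, and Teff and Naive libraries overlapped, with a log2 fold change of 1.39 ± 0.0585. Dgkz, which encodes a diacylglycerol kinase that limits receptor signalling, was among the separated genes with the highest levels but differed little, with a log2 fold change of 0.40 ± 0.04397. Its relative Dgka was not separated, at 646 ± 30.2 CPM in Anergic and 741 ± 31.97 in Treg against 636 ± 25.3 in Teff and 1177 ± 37.5 in Naive cells. The separated members with lower levels were Ikzf1, which encodes Ikaros, and the corepressor gene Tle4. The ligase genes Cblb and Itch did not pass the test.

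Among the 32 tested attenuators of T cell receptor signalling 16 were higher and 7 lower (9 and 2 in the fit of 2 classes), and the median was 0.19. The 7 separated with higher levels were Dgkz, Ubash3a, Spry1, Spred1, Dusp4, Cd5 and Cd6. Spry1 encodes a Ras pathway inhibitor, and an opposite-strand gene covers 24.4% of its exons. Spry1 stood at 62.4, 45.3 and 43.3 CPM in Anergic, 32.7, 26.3 and 23.3 in Treg, 10.5, 12.6 and 10.3 in Teff and 3.302, 2.35 and 1.82 in Naive libraries. Dusp4, which encodes a MAP kinase phosphatase, stood at 21.8, 18.4 and 22.3 CPM in Anergic, 65.3, 72.2 and 58.1 in Treg, 9.37, 8.16 and 10.05 in Teff and 3.44, 1.85 and 3.33 in Naive libraries. Spry1 was highest in Anergic and Dusp4 in Treg cells, with Anergic minus Treg differences of 0.87 ± 0.137 (adjusted p = 1.91e-05) and -1.65 ± 0.115 (adjusted p = 4.76e-11). Both genes were lowest in Naive cells. The scavenger-type receptor genes Cd5 and Cd6, which damp receptor signals, had small differences of 0.40 ± 0.0488 and 0.28 ± 0.0446. Their subset means ran from 267.8 to 370.1 CPM, and neither was called between Anergic and Treg (adjusted p = 0.504 and 0.19). Pag1, the membrane adaptor that recruits the inhibitory kinase CSK, was separated with lower levels, at 70.9 ± 9.18 CPM in Anergic and 95.03 ± 1.07 in Treg against 141 ± 8.504 in Teff and 172 ± 10.3 in Naive cells.

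Of the 20 tested genes of the acute response to receptor engagement 12 were higher and 4 lower (8 and 2 in the fit of 2 classes), with a median of 0.46. Nr4a3, an orphan nuclear receptor gene, stood at 70.1, 68.1 and 66.9 CPM in Anergic, 75.8, 72.8 and 78.02 in Treg, 51.5, 43.3 and 51.6 in Teff and 52.7, 43.6 and 42.3 in Naive libraries, with a log2 fold change of 0.60 ± 0.0596. Nr4a2, its relative, was separated as well (1.04 ± 0.119), while Nr4a1 was called but not separated. Irf4, which encodes a factor graded with receptor signal strength, stood at 108, 84.2 and 89.9 CPM in Anergic, 57.5, 64.5 and 62.1 in Treg, 33.7, 35.6 and 37.8 in Teff and 13.9, 15.7 and 9.24 in Naive libraries. Its subset means fell in the order Anergic, Treg, Teff and Naive with no overlap of libraries between neighbours. Zfp36l1, which encodes an RNA-binding protein, had a log2 fold change of 0.91 ± 0.0483, but an opposite-strand gene covers 55.9% of its exons. Ier2, an immediate-early gene, was separated with lower levels (-0.49 ± 0.0443), and Fosl2, Junb and Myc were called lower without being separated. Fos and Jun did not pass.

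Transcription factor genes were found in both directions. Of the 5 Ikaros family genes Ikzf2 and Ikzf4 were separated with higher levels and Ikzf1 with lower, Ikzf3 was called higher and Ikzf5 did not pass, with a median of 0.14. Ikzf1 stood at 386 ± 32.5 CPM in Anergic and 312 ± 14.6 in Treg against 502 ± 12.1 in Teff and 656 ± 17.2 in Naive cells. Of the 13 tested BATF, AP-1 and IRF genes 6 were higher and 6 lower (5 and 3 in the fit of 2 classes), with a median of -0.14. The 4 separated were Irf2, Irf4, Irf8 and Nfil3, all with higher levels. Nfil3, which encodes a basic leucine zipper repressor, stood at 40.8, 22.3 and 26.03 CPM in Anergic, 13.9, 16.2 and 18.3 in Treg, 3.12, 2.84 and 2.16 in Teff and 1.79, 1.98 and 1.21 in Naive libraries. Both tolerant subsets exceeded Teff by several fold, with a log2 fold change of 3.34 ± 0.178. Irf8 differed less (1.37 ± 0.101), and Irf2 very little (0.19 ± 0.0466). Batf and Maf were called higher but not separated, and Maf stood at 470.4 ± 56.96 CPM in Anergic and 159 ± 9.59 in Treg against 221 ± 10.1 in Teff and 14.8 ± 0.661 in Naive cells, so that Treg lay below Teff. The aryl hydrocarbon receptor gene Ahr was separated, at 18.9 ± 1.95 CPM in Anergic and 22.9 ± 1.66 in Treg against 13.4 ± 1.25 in Teff and 1.6002 ± 0.293 in Naive cells, yet its call was lost in the fit of 2 classes.

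NF-kappaB is a family of dimeric factors (NFKB1, NFKB2, REL, RELA and RELB) held inactive by inhibitors such as the product of Nfkbia, and it binds DNA elements called kappaB sites. Of the 16 tested genes of the NF-kappaB list 12 were higher and 1 lower (7 and 1 in the fit of 2 classes), and 7 were separated with higher levels. The differences were small, with a list median of 0.24. Some genes of this family are known targets of the family itself, so the promoters of 3 separated members that hold a kappaB match are shown. They are from RefSeq (build GRCm38.p6), cover the 250 bases before the gene start, run 5′ to 3′, and carry matches in capitals.
Nfkbia promoter, chr12:55492648-55492897, minus strand: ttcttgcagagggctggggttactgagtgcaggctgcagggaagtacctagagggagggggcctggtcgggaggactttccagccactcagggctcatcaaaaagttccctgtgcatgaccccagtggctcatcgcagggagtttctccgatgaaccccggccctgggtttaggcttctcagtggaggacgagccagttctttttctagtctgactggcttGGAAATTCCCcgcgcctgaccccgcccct
Nfkb2 promoter, chr19:46304487-46304736, plus strand: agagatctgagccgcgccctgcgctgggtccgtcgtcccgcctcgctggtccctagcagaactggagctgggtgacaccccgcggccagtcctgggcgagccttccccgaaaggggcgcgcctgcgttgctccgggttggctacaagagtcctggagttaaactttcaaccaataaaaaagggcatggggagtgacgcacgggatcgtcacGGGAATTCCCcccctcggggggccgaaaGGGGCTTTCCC
Rel promoter, chr11:23770970-23771219, minus strand: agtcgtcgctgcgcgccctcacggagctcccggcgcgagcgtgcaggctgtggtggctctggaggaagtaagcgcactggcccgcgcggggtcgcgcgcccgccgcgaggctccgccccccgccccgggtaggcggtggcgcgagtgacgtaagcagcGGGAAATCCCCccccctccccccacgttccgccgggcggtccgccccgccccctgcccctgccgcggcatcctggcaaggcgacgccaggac
The kappaB motif searched, on either strand, was GGGNN followed directly by TTTCC or by TTCCC, chosen after the data were seen, and overlapping matches are joined in the capitals. The windows held 1, 3 and 2 matches. Among all 27025 promoter windows of this length 734 (2.72%) held a match. Of the 7 separated NF-kappaB genes 5 had a window, and 3 of these held a match. Over all 16 tested genes of the list, 12 had a window and 5 of these held a match. Among all separated genes 29 of 517 windows of the higher (5.61%) and 11 of 305 of the lower (3.61%) held a match, against 290 of 8879 over all tested genes (3.27%). Nothing is read from these shares, since windows were found for only 77.2% of the higher, 73.3% of the lower and 66.3% of all tested genes, which leaves such a check void. A match is a description of letters and not of binding.

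Rel, which encodes c-Rel, stood at 99.2, 85.99 and 87.5 CPM in Anergic, 107, 96.1 and 105 in Treg, 64.5, 58.2 and 59.4 in Teff and 52.4, 50.9 and 48.9 in Naive libraries. Tolerant libraries were all above Teff and Naive, and Anergic and Treg overlapped (Anergic minus Treg -0.18 ± 0.0703, adjusted p = 0.0609). Nfkbia stood at 209.97, 161 and 172 CPM in Anergic, 243, 226 and 247 in Treg, 136, 158 and 158 in Teff and 136, 120.1 and 125 in Naive libraries. The lowest Anergic library of Nfkbia was close to the highest Teff libraries, and Treg lay higher (Anergic minus Treg -0.40 ± 0.0834, adjusted p = 0.00057). Nfkb2 averaged 109.9 and 108 CPM in Anergic and Treg against 91.5 and 59.3 in Teff and Naive cells, and an opposite-strand gene covers 18.1% of its exons.

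Log2 fold changes of these members were 0.80 ± 0.0524 for Rel, 0.71 ± 0.0518 for the adaptor Traf1, 0.64 ± 0.06404 for Relb, 0.59 ± 0.0602 for Nfkbia, 0.57 ± 0.0461 for Nfkb2, 0.53 ± 0.0412 for Nfkb1 and 0.25 ± 0.0559 for the adaptor Traf2. Of the 7, only Nfkbia differed between Anergic and Treg at an adjusted p under 0.05. In all 7 Teff exceeded Naive at an adjusted p under 0.05, with differences from 0.20 (Nfkb1) to 0.64 (Relb). Ikbkb, which encodes the kinase that marks the inhibitors for degradation, was separated with lower levels, at 138 ± 6.93 CPM in Anergic and 166 ± 2.29 in Treg against 208 ± 5.35 in Teff and 209.6 ± 7.96 in Naive cells. The levels of subunit, inhibitor and kinase transcripts say nothing about the activity of the factor.

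In the TGF-beta pathway 6 of 17 tested genes were higher and 5 lower (5 and 1 in the fit of 2 classes), with a median of -0.01, against 20.3% higher and 16.4% lower over all tested genes. As a list it thus had no common direction. The separated genes act in the surface activation of the latent cytokine (Lrrc32, Itgb8 and Itgav) or encode its receptor chains, which were separated in opposite directions. Itgav, which encodes the alpha-v chain that pairs with the Itgb8 product, stood at 125, 106 and 108 CPM in Anergic, 66.7, 68.1 and 67.7 in Treg, 52.6, 47.7 and 52.3 in Teff and 33.3, 34.4 and 30.3 in Naive libraries. Itgb3 encodes another beta chain that pairs with alpha-v and was separated the other way, at 17.5, 24.6 and 31.2 CPM in Anergic, 51.2, 51.6 and 59.01 in Treg, 130.2, 146 and 139 in Teff and 161, 171 and 176 in Naive libraries. Anergic libraries were the highest for Itgav and the lowest for Itgb3. The type I receptor gene Tgfbr1 stood at 32.4, 37.5 and 41.97 CPM in Anergic, 93.97, 98.1 and 96.7 in Treg, 26.6, 27.9 and 30.4 in Teff and 31.2, 31.5 and 26.5 in Naive libraries. The type II receptor gene Tgfbr2 stood at 269, 290.2 and 296 CPM in Anergic, 205, 205 and 188 in Treg, 319, 313 and 321 in Teff and 424, 413 and 409.8 in Naive libraries. Treg stood far above the rest for Tgfbr1, with Anergic libraries only just above Teff and Naive, and Treg was also the lowest subset for Tgfbr2.

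IL-2 and related cytokines signal through JAK and STAT5. Of 14 tested genes of this list 9 were higher and 3 lower (3 and 1 in the fit of 2 classes), with a median of 0.42. Only 2 were higher in all 4 pairwise comparisons, and 8 were lower and 1 higher in Anergic than in Treg. Summed over the list, levels were 2051 ± 40.1 CPM in Anergic and 3495 ± 66.2 in Treg against 2551 ± 11.9 in Teff and 2281 ± 14.4 in Naive cells. As a sum, Anergic was thus the lowest subset and Treg the highest. The kinase gene Jak3 and Stat5a were separated with higher levels (0.62 ± 0.0488 and 0.61 ± 0.0542). Il7r, the IL-7 receptor chain needed for survival of resting T cells, stood at 119.6, 138 and 175 CPM in Anergic, 105, 129 and 138 in Treg, 403, 347 and 360.3 in Teff and 299, 249.8 and 280.2 in Naive libraries. Anergic and Treg libraries overlapped and all lay below Naive, and Teff libraries were highest.

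Adenosine is produced outside the cell by CD73 and raises cyclic AMP, which phosphodiesterases degrade. Of 8 tested genes of this list 5 were higher and 3 lower (2 and 2 in the fit of 2 classes), with a median of 0.35. The nucleoside transporter gene Slc29a1 stood at 69.2, 59.3 and 57.4 CPM in Anergic, 34.6, 32.2 and 33.3 in Treg, 21.9, 19.9 and 21.2 in Teff and 13.1, 16.4 and 14.4 in Naive libraries. The phosphodiesterase gene Pde3b stood at 74.2, 118 and 124 CPM in Anergic, 9.18, 13.1 and 12.9 in Treg, 318, 316 and 298 in Teff and 234, 265 and 269 in Naive libraries. The phosphodiesterase gene Pde4b stood at 81.1, 86.1 and 84.7 CPM in Anergic, 73.2, 68.4 and 72.1 in Treg, 111, 104 and 101 in Teff and 127, 108 and 111 in Naive libraries. Slc29a1 was higher and both phosphodiesterase genes were lower in all tolerant libraries, and Pde3b was far lower in Treg than in Anergic cells (Anergic minus Treg 3.18 ± 0.158, adjusted p = 1.03e-13).

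Of 22 tested cytokine and ligand genes 16 were higher and 2 lower (9 and 0 in the fit of 2 classes), with a median of 0.93. Beside Penk, the separated members were Csf1, Lta, Il10, Ebi3 and Areg. Csf1, which encodes the macrophage growth factor M-CSF, stood at 43.7, 34.1 and 33.7 CPM in Anergic, 16.4, 21.7 and 22.4 in Treg, 3.01, 4.82 and 6.997 in Teff and 0.413, 1.48 and 0.606 in Naive libraries. Anergic libraries were the highest (Anergic minus Treg 0.89 ± 0.169, adjusted p = 0.000206). Lta, which encodes lymphotoxin alpha, averaged 15.04 and 27.7 CPM in Anergic and Treg against 8.83 and 8.98 in Teff and Naive cells. Il10, which encodes an anti-inflammatory cytokine, was rare, at 5.52, 1.17 and 1.99 CPM in Anergic, 3.73, 6.19 and 5.51 in Treg, 0.116, 0.371 and 0 in Teff and 0, 0 and 0 in Naive libraries. Ebi3, which encodes a subunit of IL-27 and IL-35 and has an opposite-strand gene over 23.4% of its exons, and Areg, which encodes the growth factor amphiregulin, were also below 10 CPM in every library. A total of 3 counts in a library corresponds to 0.302 to 0.454 CPM, so Il10 and Areg outside the tolerant subsets are near the limit of this depth. For Ebi3 the highest other library stood at 2.23 CPM, not far below the lowest tolerant library at 2.58 CPM.

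Genes separated with lower levels had smaller pairwise differences. The 15 with the largest pairwise differences were Pdlim4, Atp8b4, Sema4a, Dse, Gramd3, Pxylp1, Vipr1, Mctp2, Appl2, Prf1, Slc16a5, Ust, Dapl1, Hid1 and Itgb3. Pdlim4, which encodes a PDZ and LIM domain protein, stood at 0.117, 0.586 and 0.531 CPM in Anergic, 0.302, 0.379 and 0.587 in Treg, 3.703, 5.07 and 6.23 in Teff and 34.5, 32.5 and 43.01 in Naive libraries. It was near the level of a few counts in tolerant cells and far higher in Naive than in Teff. Sema4a, which encodes a semaphorin, stood at 12.2, 11.1 and 13.1 CPM in Anergic, 17.1, 16.8 and 14.5 in Treg, 78.8, 79.5 and 77.1 in Teff and 61.8, 76.4 and 76.9 in Naive libraries. Its Teff and Naive libraries overlapped, and both tolerant subsets lay well below them, with a log2 fold change of -2.42 ± 0.0711. Gramd3 stood at 27.2, 24.8 and 28.7 CPM in Anergic, 29.04, 28.9 and 28.5 in Treg, 126, 116 and 99.5 in Teff and 97.4, 101 and 103 in Naive libraries. It was called neither between the tolerant subsets nor between Teff and Naive (adjusted p = 0.468 and 0.0672), with a log2 fold change of -1.94 ± 0.0604.

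Vipr1, which encodes a receptor for vasoactive intestinal peptide, stood at 13.4, 19.6 and 20.6 CPM in Anergic, 10.7, 10.998 and 8.799 in Treg, 52.996, 53.1 and 58.01 in Teff and 197, 185 and 199 in Naive libraries. Its levels fell in the order Naive, Teff, Anergic and Treg without overlap. Atp8b4, which encodes a lipid flippase, stood at 5.78 ± 1.06 CPM in Anergic and 1.29 ± 0.635 in Treg against 37.4 ± 3.96 in Teff and 49.5 ± 1.44 in Naive cells. Mctp2 stood at 19.3 ± 3.38 CPM in Anergic and 5.66 ± 1.38 in Treg against 72.6 ± 14.4 in Teff and 58.1 ± 2.63 in Naive cells. Both were lower in Treg than in Anergic cells. The enzyme genes Dse, Pxylp1 and Ust, which act on glycosaminoglycan chains, had log2 fold changes of -2.14 ± 0.116, -2.24 ± 0.134 and -2.05 ± 0.149. The adaptor gene Appl2 changed by -2.11 ± 0.1199, the transporter gene Slc16a5 by -2.52 ± 0.165 and Hid1 by -2.42 ± 0.129. In none of Dse, Pxylp1, Slc16a5 and Ust did Anergic and Treg differ at an adjusted p under 0.05.

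No tested gene of the naive and quiescence list was higher in tolerant subsets and 18 of 22 were lower (8 in the fit of 2 classes), with a median of -0.54. Only 2 of the 22 were lower in all 4 pairwise comparisons. Summed over the list, levels were 5166 ± 242 CPM in Anergic and 5813 ± 155 in Treg against 5768 ± 34.9 in Teff and 10750 ± 134 in Naive cells. As a sum, Naive stood far above the rest, and Treg was not below Teff. Only Satb1, Il7r and Dapl1 were separated. Satb1, which encodes a chromatin organiser, stood at 111, 164 and 169 CPM in Anergic, 449.99, 428 and 448 in Treg, 538, 482 and 506 in Teff and 1170, 1131 and 1103 in Naive libraries. Naive libraries were by far the highest, Anergic libraries the lowest, and Treg libraries lay just below Teff. Dapl1 stood at 7.08 ± 1.66 CPM in Anergic and 4.14 ± 1.41 in Treg against 18.5 ± 5.04 in Teff and 58.3 ± 5.24 in Naive cells. Lef1 and Tcf7, transcription factor genes of naive T cells, were called lower without being separated. Lef1 stood at 220.04 ± 15.9 CPM in Anergic and 314 ± 2.19 in Treg against 299 ± 9.09 in Teff and 915 ± 32.7 in Naive cells. Tcf7 stood at 1623 ± 69.2 CPM in Anergic and 575 ± 28.7 in Treg against 1115 ± 52.2 in Teff and 1876 ± 35.9 in Naive cells, with Anergic above Teff, and its call was lost in the fit of 2 classes.

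Of 18 tested Th1 and cytotoxic genes 5 were higher and 8 lower (0 and 4 in the fit of 2 classes), with a median of -0.47. Prf1 and Runx3 were separated, both with lower levels. Prf1, which encodes perforin, stood at 0.704, 0.937 and 1.99 CPM in Anergic, 8.37, 6.95 and 9.15 in Treg, 20.8, 22.8 and 21.4 in Teff and 33.2, 31.4 and 33.6 in Naive libraries. Naive libraries were the highest and Anergic libraries the lowest. Runx3, a transcription factor gene of cytotoxic cells, stood at 64.6, 70.3 and 83.9 CPM in Anergic, 52.6, 60.2 and 59.5 in Treg, 176, 179 and 168 in Teff and 106, 110.05 and 109 in Naive libraries. Teff libraries were highest for Runx3, Naive libraries next, and the tolerant subsets lay below both. Cxcr3, a chemokine receptor gene, was called higher, but no fold is given because Naive libraries held hardly any counts. Its levels were 90.04 ± 2.12 CPM in Anergic and 13.01 ± 1.505 in Treg against 128 ± 4.86 in Teff and 0.124 ± 0.214 in Naive cells. Both tolerant subsets lay below Teff, and in the fit of 2 classes the sign of Cxcr3 turned (-0.32, adjusted p = 0.888).

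Markers of NK and innate-like T cells were checked beside this group. Summed over the list of 11, of which 8 were tested, their levels ran from 5.04 to 45.7 CPM in tolerant and from 8.12 to 245 in other libraries, with the high values in Teff only (203 ± 36.4, SD, n = 3). By edgeR none of the 8 was called higher (1 in other settings, DESeq2 among them) and 3 were lower, among them Klrd1, which encodes the lectin receptor CD94 and was separated at 0.422 ± 0.401 CPM in Anergic and 0.118 ± 0.127 in Treg against 9.004 ± 1.53 in Teff and 4.195 ± 0.903 in Naive cells. Klra4 had 0 counts in every library and Ncr1 had 2 in all. The part of such cells in the lower levels of Prf1 and Runx3 was not tested. Outside Teff the summed markers were 35.98 ± 8.71 CPM in Anergic, 5.998 ± 1.23 in Treg and 8.23 ± 0.154 in Naive cells.

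Several lists held few or no separated genes. Of 15 tested follicular helper genes 12 were higher and 1 lower (3 and 0 in the fit of 2 classes), and 14 of the 15 were higher in Anergic than in Treg. Separated were Pdcd1, Cd200 and Il6st, the last of these only just, at 364 ± 6.94 CPM in Anergic and 358 ± 5.69 in Treg against 189 ± 3.92 in Teff and 338 ± 12.2 in Naive cells. The call of Il6st was lost in the fit of 2 classes. Summed follicular helper genes ran from 1430 to 3675 CPM in tolerant and 1949 to 2477 in other libraries, so the list as a sum did not separate the classes. The part of follicular helper cells in the levels of Pdcd1 and Cd200 was not tested.

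Of 25 tested homing receptor genes 14 were higher and 8 lower (5 and 2 in the fit of 2 classes). Separated were Itgav, Itgb8 and, with lower levels, the sphingosine phosphate receptor gene S1pr4 (-0.56 ± 0.0607). Of 14 tested BCL2 family genes 5 were higher and 1 lower (2 and 0), and Pmaip1, which encodes the death-promoting protein NOXA, was separated at 16.4 ± 4.56 CPM in Anergic and 18.02 ± 0.581 in Treg against 9.78 ± 1.29 in Teff and 1.86 ± 0.436 in Naive cells. Of 26 cell cycle genes 11 were higher and 6 lower (2 and 3), with Cdk6 separated above (1.19 ± 0.0768) and Ccnd3, which encodes cyclin D3, below (-0.48 ± 0.0478). Cyclin D3 and CDK6 are partners in the same kinase complex.

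Over all tested genes 20.3% were higher and 16.4% lower, and the counts of the next 3 lists lay near these shares or somewhat above them. For interferon response genes 7 of 23 were higher and 5 lower (2 and 3), with Gbp3 separated above (1.72 ± 0.0675) and Irf7 and Ifit3 below (-0.39 ± 0.0519 and -0.51 ± 0.0923). For stress response genes 3 of 13 were higher and 2 lower (0 and 1), and Atf4, a factor of the amino acid response, was separated below (-0.38 ± 0.0653). Glycolysis had 5 of 17 higher and 5 lower (0 and 1), with none separated. Among 5 tested Th2 genes 3 were higher and 1 lower (0 and 0), and of 5 tested Th17 genes 4 were higher (0), Ahr alone being separated.

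**Figure D3:**
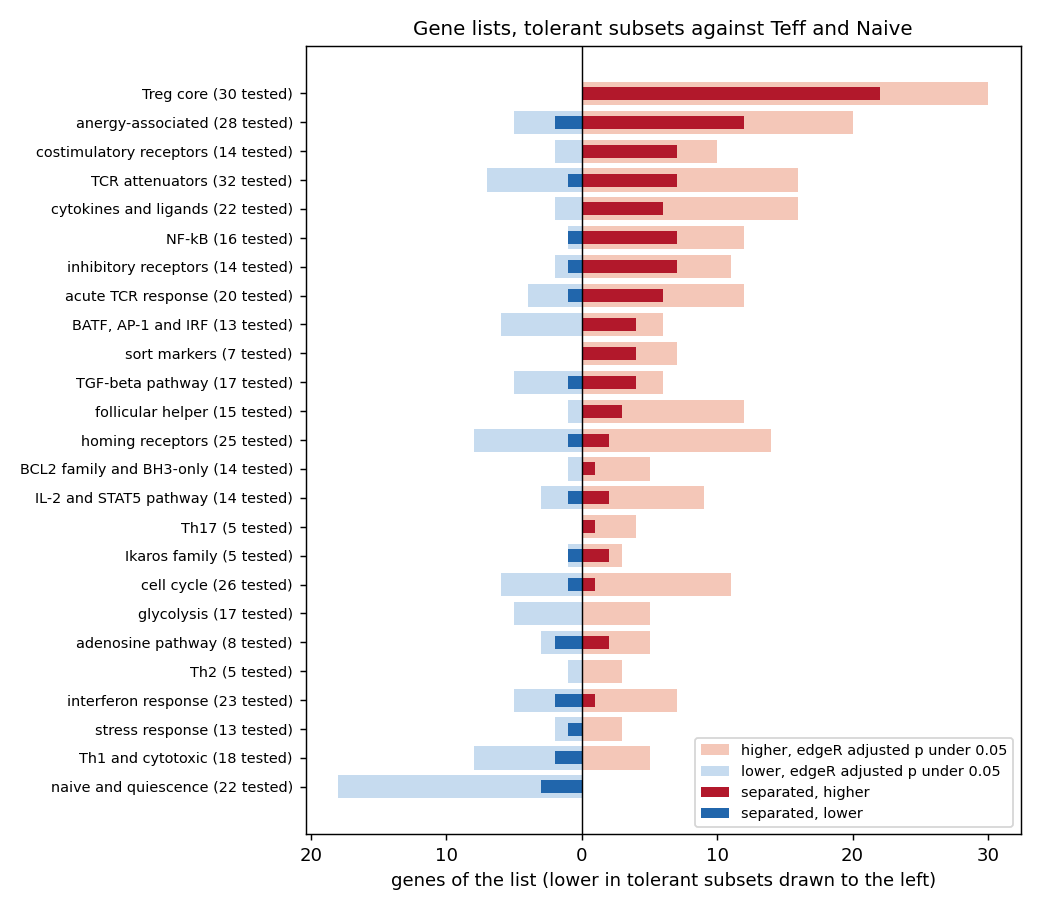
Number of genes per list that were called higher or lower by edgeR (pale bars) and that were separated (dark bars), as counts of tested genes. The Treg core list stands out with 30 called and 22 separated, all higher, while the naive and quiescence list has 18 called lower and 3 separated.

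Markers of other cells were checked in the same libraries. B cell genes summed to 223 to 504 CPM in tolerant and 181 to 227 in other libraries, mostly Ighm, and the highest values were in Treg. Cd79b was separated with higher but low levels, at 1.87 ± 0.471 CPM in Anergic and 5.96 ± 0.411 in Treg against 0.737 ± 0.156 in Teff and 0.637 ± 0.0442 in Naive cells. Ighd was as well, at 3.07 ± 0.595 CPM in Anergic and 5.41 ± 0.906 in Treg against 0.412 ± 0.156 in Teff and 1.18 ± 1.01 in Naive cells. Other members of the list were ordered differently. Cd22 averaged 27.8 CPM in Anergic and 2.87 in Treg against 12.5 in Teff and 0.101 in Naive cells. Pax5 averaged 1.498 and 0.484 against 1.35 and 0.376, and Cd79a 0.529 and 0.672 against 0.616 and 1.25. Of the 5 tested genes 4 were called higher and 0 lower. Ms4a1, a defining B cell gene, had 28 counts over all 12 libraries. For the plasma cell list all 5 tested genes were higher (2 in the fit of 2 classes), with sums of 154 to 200.5 CPM in tolerant and 52.7 to 126 in other libraries, and Irf4 and Xbp1, which T cells also express, were separated. Myeloid, CD8, erythroid and stromal lists had no separated gene, and Pecam1, expressed by T cells too, made up most of the stromal sum. The part of B cell transcripts in the levels of Cd79b and Ighd was not tested. T cell identity genes summed to 6580 to 8983 CPM in tolerant and 6970 to 7869 in other libraries.

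Anergic and Treg cells were then compared within the separated genes. The choice of genes did not use this contrast, but it used the level of every library. The counts below are therefore not independent of the choice. Over all tested genes Anergic exceeded Treg in 2096 (15.6%) and lay below it in 2054 (15.3%). Of the 670 higher genes 172 (25.7%) were higher in Anergic, 127 (19%) were higher in Treg, and 371 (55.4%) were not called. Of the 416 lower genes 65 (15.6%) were higher and 77 (18.5%) lower in Anergic, and 274 were not called. Genes not called can still differ by less than the test could detect. The Anergic mean was above the Treg mean in 386 of the 670 higher genes and below it in 284.

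**Figure D4:**
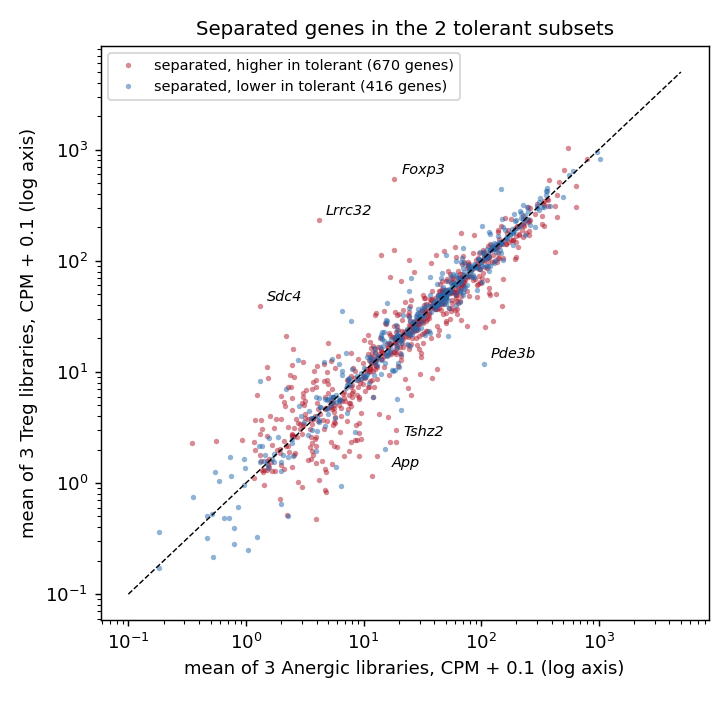
Mean Treg level (vertical axis) against mean Anergic level (horizontal axis) of the 670 higher and 416 lower separated genes, as CPM plus 0.1 on log axes. The diagonal marks equal levels, and Foxp3, Lrrc32 and Sdc4 lie far to the Treg side.

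The level of each higher gene in Anergic cells was expressed as a share of its level in Treg, after the higher of the Teff and Naive means was subtracted from both. A share of 100% means equal elevation. The share was 3.11% for Foxp3. Of the 670 genes 661 (98.7%) had a share of at least 10%, 558 of at least 50% and 386 of at least 100%, with a median of 114% and a range from 1.75 to 2982%. Low shares were in part removed by the choice of genes, since every Anergic library had to lie above every Teff and Naive library, so these counts describe the set and do not test it. Lrrc32, Sdc4 and Foxp3 itself were the 3 genes with a share at or below that of Foxp3. The proteoglycan gene Sdc4 stood at 0.939, 1.52 and 1.195 CPM in Anergic, 32.9, 41.8 and 42.4 in Treg, 0.463, 0.495 and 0.636 in Teff and 0, 0 and 0.151 in Naive libraries. After these came the kinase gene Src at 3.72%, Swap70 at 4.27%, Gpr83 at 6.203%, Gbp3 at 7.18%, Tnfrsf18 at 8.203% and Gbp2b at 9.17%, and these 9 genes were the ones under 10%. Src and this ranking were taken up after the values were seen. For the lower genes, measured from the lower of the Teff and Naive means, the median share was 102%, the lowest 12.3%, and 386 of 416 were at 50% or more.

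**Figure D5:**
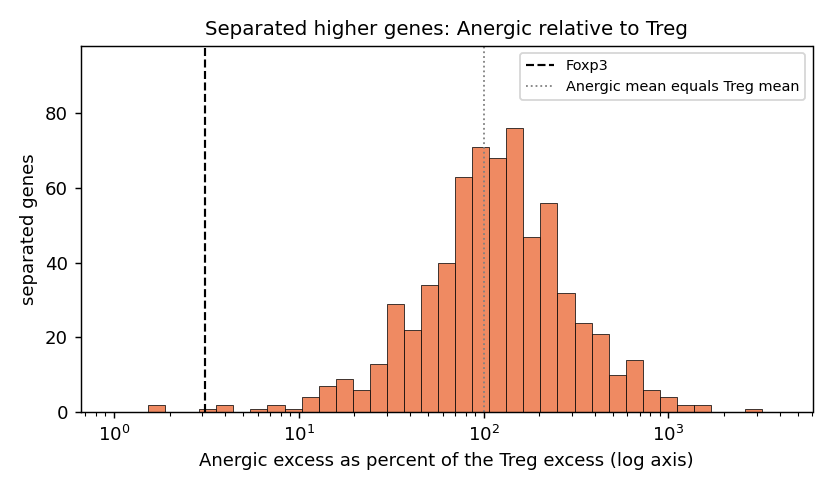
Histogram of the Anergic share of the Treg difference over the higher separated genes, in percent on a log axis, with a dashed line at the 3.11% of Foxp3 and a dotted line at 100%. Nearly all genes lie to the right of the dashed line and 386 of 670 lie at or above 100%.

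Teff and Naive cells were compared in the same way, again on a contrast the choice did not use, although it used their levels. Over all tested genes 2570 (19.2%) were higher and 2099 (15.7%) lower in Teff than in Naive. Of the 670 higher genes 259 (38.7%) were higher and 27 (4.03%) lower in Teff, and the Teff mean exceeded the Naive mean in 512 (76.4%), against 50.6% of all tested genes. Of the 416 lower genes 45 (10.8%) were higher and 122 (29.3%) lower in Teff. Among the higher genes, Teff therefore often lay between Naive and the tolerant subsets. Examples of intermediate Teff levels are Nrp1 (Teff minus Naive 4.16 ± 0.152, adjusted p = 2.29e-16), Ikzf2 (4.35 ± 0.169, adjusted p = 7.41e-16) and Vipr1 (-1.82 ± 0.0885, adjusted p = 4.17e-14). Exceptions with Naive above Teff were Ikzf4 (-1.38 ± 0.239, adjusted p = 6.33e-05), Gpr83 (-2.40 ± 0.199, adjusted p = 7.86e-10) and Il6st (-0.84 ± 0.0589, adjusted p = 3.55e-11).

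By level, the higher genes ranged widely. Those with the highest tolerant median were Shisa5, Samhd1 and Inpp4b, chosen after the values were seen. Shisa5 stood at 797 ± 53.9 CPM in Anergic and 829 ± 20.98 in Treg against 662 ± 16.2 in Teff and 695 ± 18.3 in Naive cells. Samhd1, which encodes a nucleotide hydrolase that restricts viruses, stood at 548 ± 40.9 CPM in Anergic and 1029 ± 23.01 in Treg against 456 ± 33.1 in Teff and 411 ± 14.2 in Naive cells. Their log2 fold changes were 0.26 ± 0.0438 and 0.79 ± 0.0482. Hif1a, which encodes the oxygen-regulated factor HIF-1 alpha, was also separated, at 444 ± 39.99 CPM in Anergic and 249 ± 12.8 in Treg against 164 ± 0.894 in Teff and 106 ± 2.32 in Naive cells. Stat3 stood at 227 ± 5.45 CPM in Anergic and 221 ± 11.2 in Treg against 188 ± 5.06 in Teff and 190.1 ± 3.83 in Naive cells. A mean of 10 CPM or more over the tolerant libraries was reached by 458 of the 670 higher genes (68.4%). Over all tested genes 60.7% reached that mean in the class where they were higher.

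Some separated genes lie side by side in the genome (GRCm38, GENCODE annotation, distances between gene starts among tested genes). Among tested genes in chromosome order 67 adjacent pairs were both higher and 34 both lower. With 5% of tested genes separated higher and 3.11% lower, some such pairs arise in any order. The number to be expected was not computed, so nothing about clustering is read from these counts. Gpr83 (chromosome 9, 14860210 to 14870789) and the FR4 gene Izumo1r (chromosome 9, 14885814 to 14903949) start 25604 bases apart. Tnfrsf1b (chromosome 4, 145213463 to 145246870) and Tnfrsf8 (chromosome 4, 145267137 to 145315164) start 53674 bases apart. Stat5a and Stat3 on chromosome 11 start 25747 bases apart, and Cd5 and Cd6 on chromosome 19 flank the predicted gene A430093F15Rik, which was separated as well. Foxp3 lies at chromosome X, 7573644 to 7595245. Overlapping or neighbouring transcripts may share reads, since the strand setting of the counting is not given in the sources used here.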

How the data were processed

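RNA isolation used QIAGEN RNeasy, and the library kit was Takara SMARTer Stranded Total RNA Pico, per the labels' protocols. The deposited values are raw counts per gene, which the authors obtained with Trimmomatic, HISAT2, SAMtools and featureCounts per the series' design text and on build GRCm38 (mm10) per the submitters' processing notes. No source used here gives the annotation or strand setting of featureCounts, and ATAC-seq of the same study was not analysed here.

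From the counts, CPM were computed with edgeR 4.0.16 TMM factors in R 4.3.3. Genes passing edgeR's filterByExpr were fitted with glmQLFit on 4 subset means, all tests were two-sided, and the standard error is the log2 fold change divided by the root of the F statistic. The common biological coefficient of variation was 0.0764. Alternatives were DESeq2 1.42.0, limma 3.58.1 voom, other scalings and filters, removal of abundant RNA entries, a fit of 2 classes, a replicate block and leaving out each library. The procedure was tested on simulated data.

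The comparison, its genes and the gene lists were chosen with earlier results of these data known. Genes named in the text are the sort markers, the 15 separated genes per direction with the largest smallest pairwise difference (at least 10 CPM, predicted genes left out), separated members of the lists, up to 2 called members per list and direction, the genes nearest the threshold and the 3 per direction that differ most between Anergic and Treg. Others are named only as members of a list or as chosen after their values were seen. Of the gene names, 102 stand on 207 entries and 27 look like dates. Positions are from GENCODE M21. Some genes of the lists are not reported here.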

Additional observations from a re-analysis of the deposited data

Results flagged for a closer look

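Within the separated genes of at least 10 CPM, the difference between Anergic and Treg was tested directly with edgeR (Benjamini-Hochberg adjusted over all 13393 genes), and the 3 largest in each direction are given here, as Anergic minus Treg on the log2 scale. Among those higher in Anergic, Pde3b, a phosphodiesterase gene, differed by 3.18 (adjusted p = 1.03e-13), the zinc finger gene Tshz2 by 3.05 (adjusted p = 1.48e-08) and App, which encodes the amyloid precursor protein, by 2.98 (adjusted p = 7.78e-10). Tshz2 was separated with higher levels, while Pde3b and App were separated with lower levels and were lowest in Treg. An opposite-strand gene covers 67.5% of the exons of Tshz2. Among those higher in Treg, Lrrc32 differed by -5.83 (adjusted p = 1.46e-18), the syndecan gene Sdc4 by -4.98 (adjusted p = 5.9e-15) and Foxp3 by -4.90 (adjusted p = 2.15e-21). In each of these 6 genes all 3 Anergic libraries lay on the same side of all 3 Treg libraries. Lrrc32 and Sdc4 reached 10 CPM through Treg alone. Tshz2, whose tolerant libraries ran from 2.02 to 24.5 CPM, reached it through Anergic alone.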

How the results depend on the processing

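The fit of 2 classes, whose construction counts subset differences as spread, called 1086 genes higher and 706 lower in tolerant subsets, against 2719 and 2191. Every other alternative stayed within 1.5 times for the counts over all genes and over the separated genes. Small list counts moved more. Stress response genes called lower numbered 1 to 7 and higher 1 to 3 over these alternatives, against 2 and 3. Those lower in the IL-2 and STAT5 list numbered 2 to 5 against 3, and in the BCL2 list 0 to 2 against 1. Th1 genes called higher numbered 3 to 5 against 5, glycolysis genes lower 3 to 5 against 5, and NK and innate-like genes lower 1 to 4 against 3. Those lower among cytokines and ligands numbered 1 to 3 against 2, among follicular helper genes 1 to 2 against 1, and among myeloid genes 0 to 1 against 1. Leaving out each library in turn gave 2546 to 2664 higher and 1967 to 2162 lower genes, 715 to 782 and 454 to 518 separated genes (fewer libraries make separation easier), and 425 to 484 and 214 to 251 genes called in all 4 pairwise comparisons. The remaining settings gave 547 to 718 separated higher and 354 to 444 separated lower genes. Of 169 named genes, Cxcr3 turned sign in the fit of 2 classes (-0.32) and 42 lost their call there, and in any other setting at most 5 lost theirs. Libraries of different subsets were also correlated after the subset mean of each gene was subtracted. These deviations were weakly correlated between same-numbered libraries (r from -0.0377 to 0.225, 5 of 18 pairs over 0.1). Even so, the deviations of 11 of 12 libraries correlated best, on average, with those of their own number in the other subsets. The main fit did not model an effect shared by replicate number. With a replicate block 2896 genes were higher and 2433 lower, 562 and 307 were called in all 4 pairwise comparisons, and 474 and 478 separated genes differed between Anergic and Treg and between Teff and Naive, against 441 and 453. The depth limits genes at a few counts in the libraries of a subset, which are given by their CPM.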

Other observations

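Some genes set the tolerant subsets apart in opposite directions. In 55 of the tested genes (0.411%) all Anergic libraries lay above and all Treg libraries below all 6 Teff and Naive libraries, and in 70 (0.523%) the reverse held. The genes named here were chosen after their values were seen. Pou2af1, which encodes a B cell and follicular helper coactivator, averaged 22.5 CPM in Anergic and 1.08 in Treg cells, against 9.21 in Teff and 5.04 in Naive. Ntrk3, which encodes a neurotrophin receptor, averaged 63.3 and 4.09 CPM, against 21.2 and 21. Malt1, which encodes a protease that links the antigen receptor to NF-kappaB, averaged 266 and 109 CPM, against 150 and 141. Cd4 itself averaged 1219 and 466 CPM, against 652 and 675.

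In the other direction, Bcl2, which encodes a survival protein, averaged 61.9 CPM in Anergic and 219 in Treg cells, against 89.7 in Teff and 139 in Naive. Myc averaged 26.8 and 96.6 CPM, against 41.9 and 79.8. Ifngr1, which encodes a chain of the interferon gamma receptor, averaged 33.02 and 170 CPM, against 116 and 67.4. The glucose transporter gene Slc2a3 averaged 22.3 and 96.4 CPM, against 70.3 and 34.4. No such gene is among the separated genes, since the choice requires both tolerant subsets on the same side.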
